A study of Mus musculus with 18 samples.

Results

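The 10 genes described here move, store or sense iron in macrophages, and they are Slc40a1, Slc11a1, Slc11a2, Tfrc, Fth1, Ftl1, Ireb2, Aco1, Lcn2 and Cp. They were taken by name from a list of iron handling genes, which was chosen by the measured rise of Slc40a1 with carboplatin in LPS-tolerant BMDMs. All 10 are among the 22852 gene symbols of the count tables, and all 10 were among the 11305 genes with enough counts to be tested. BMDMs are macrophages grown from mouse bone marrow of female C57BL/6 mice in medium containing supernatant of L929 cells. RNA-Seq covered 18 samples in 6 groups of 3. One group was left unstimulated. The others were LPS-primed BMDMs (100 ng/ml, 24 h), LPS-primed BMDMs given 25 µM carboplatin from 1 h before priming, LPS-tolerant BMDMs that received fresh medium with a second dose of LPS (10 ng/ml, 3 h) after priming, LPS-tolerant BMDMs given 25 µM carboplatin from 1 h before priming, and LPS-stimulated BMDMs that received a single dose (10 ng/ml, 3 h). The sample labels give the dose of the LPS-stimulated BMDMs but not the time, so the 3 h of this group is less certain than its dose. LPS is a component of the bacterial outer membrane, and carboplatin is a platinum drug that binds DNA. The age of the mice and whether same-numbered samples came from the same mouse are not given in the sources used here, so p-values measure the spread between these samples.

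Macrophages take up iron from transferrin, from phagocytosed red cells and from free ions, hold it in ferritin and release it through ferroportin. Ferritin is a shell built of heavy chains, which oxidise iron, and light chains, which help it to mineralise inside the shell. A pair of iron regulatory proteins senses the iron in the cytosol and binds hairpins in the untranslated ends of mRNAs, where it blocks translation of ferritin and ferroportin and protects the mRNA of the transferrin receptor. During infection macrophages are known to withhold iron from microbes, by holding it inside the cell and by secreting lipocalin 2, which captures bacterial iron carriers.

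These hairpins are shown because they have the form that the iron regulatory proteins bind, and binding was not measured here. Only the amount of mRNA was measured here, so control of translation is not seen. In each line the capitals mark the bulged C and the 6-base loop of the hairpin, and the sequences were read from GRCm39 with the transcripts of GENCODE vM39.
Fth1, 5′ untranslated region, chr19:9960095-9960124, plus strand: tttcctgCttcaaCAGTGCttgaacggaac
Ftl1, 5′ untranslated region, chr7:45109203-45109232, minus strand: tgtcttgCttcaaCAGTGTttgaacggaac
Slc40a1, 5′ untranslated region, chr1:45964625-45964654, minus strand: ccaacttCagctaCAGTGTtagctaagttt
Tfrc, 3′ untranslated region, chr16:32450036-32450065, plus strand: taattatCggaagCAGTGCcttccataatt
Tfrc, 3′ untranslated region, chr16:32450415-32450444, plus strand: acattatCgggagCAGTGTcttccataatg
Tfrc, 3′ untranslated region, chr16:32450480-32450509, plus strand: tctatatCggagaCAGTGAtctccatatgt
Tfrc, 3′ untranslated region, chr16:32450527-32450556, plus strand: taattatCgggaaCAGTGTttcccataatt

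The search asked for a C, any 5 bases, CAGTG, a base other than G, and 5 bases that pair with the first 5 (G with T counted as a pair), on the transcribed strand of untranslated regions only. Fth1, Ftl1 and Slc40a1 held 1 such hairpin before the coding sequence, and Tfrc held 4 after it. Of 21575 protein-coding genes, 36 (0.167%) held one in a 5′ untranslated region and 124 (0.575%) in a 3′ untranslated region. The Slc40a1 hairpin lies in 5 of its 9 coding transcripts, and the count tables do not separate transcripts. The other 6 members held no match to these letters, which does not show that they lack a bound hairpin. A hairpin with other pairing or other loop letters would be missed.

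The libraries held between 6869667 and 14708099 counted read pairs, with a median of 8986463. Summed macrophage markers were high in all 18 libraries, at 11600 to 27360 CPM over 6 genes (CPM, counted read pairs scaled by TMM to a common library size of 1e+06). Of these, Lyz2 had the most read pairs, 52652 to 178495, and Mertk the fewest, 58 to 1139. Of 7 erythroid markers, 5 had no read pair in any library and the highest count of the others was 8. Summed B cell markers reached 168 CPM in unstimulated BMDMs, with up to 1697 reads of Ighm, at most 29.1 CPM in LPS-stimulated BMDMs and at most 1.36 CPM in the other groups, while Cd79a never exceeded 2 reads. Replicate 1 was the lowest of its group in 6 of 6 groups for Ireb2 and Cp and in 5 of 6 groups for Tfrc and Aco1.

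**Figure D1:**
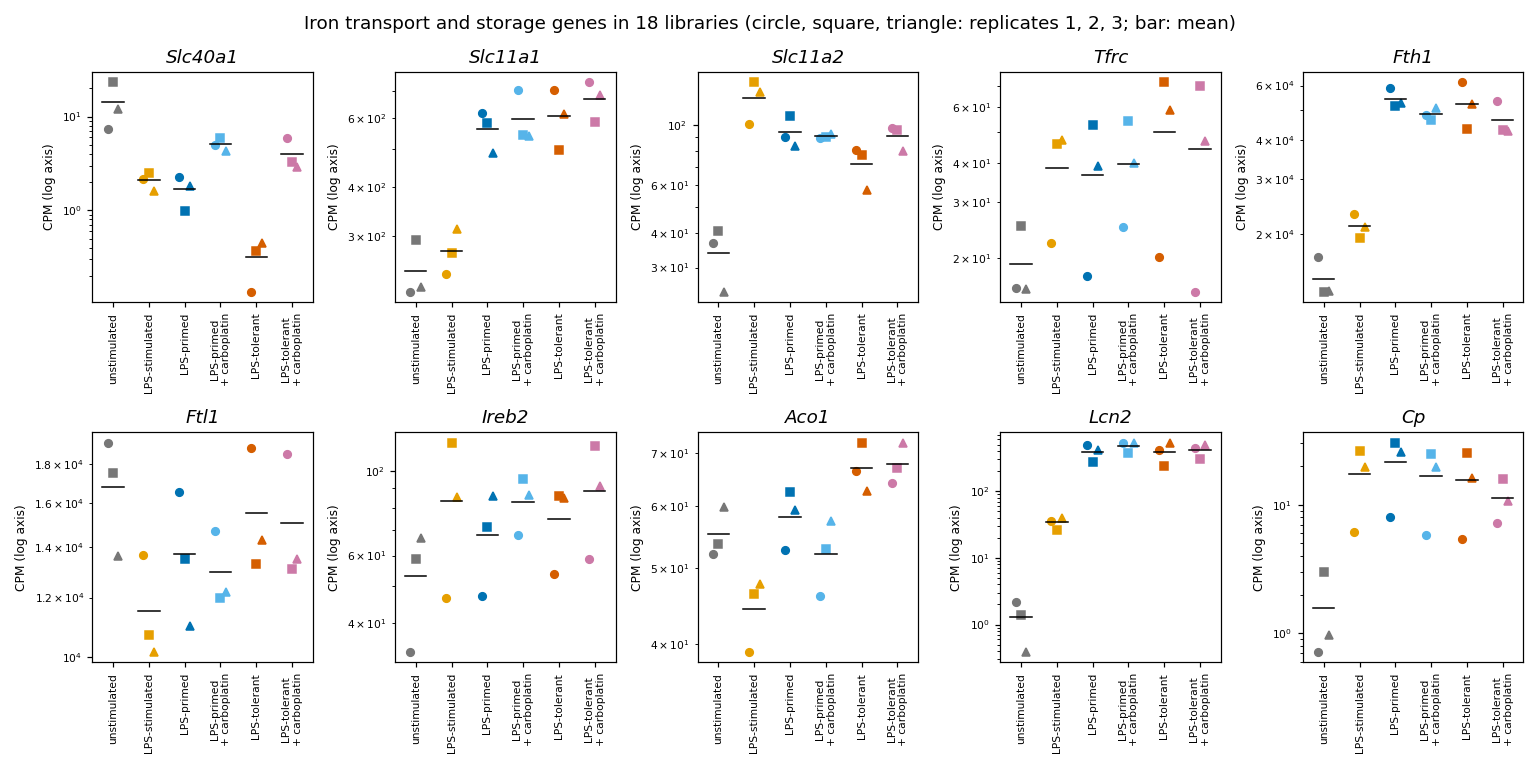
Level of each of the 10 genes in 18 libraries, in CPM on log axes that differ between panels, with circles, squares and triangles for replicates 1, 2 and 3 and a bar at the group mean. Lcn2 lies between 0.39 and 2.16 CPM in unstimulated BMDMs and between 238 and 536 CPM in the 4 groups that received the 24 h dose, and replicate 1 lies lowest in all 6 groups for Ireb2 and Cp.

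Slc40a1 (ENSMUSG00000025993, GRCm39 chr1:45947211-45965683, minus strand) encodes ferroportin, the only known iron exporter of mammalian cells. Per kilobase of its canonical transcript it was the lowest of the 10 genes in every group but unstimulated BMDMs, where Cp, Lcn2 and Tfrc were lower, with a mean of 4.10 CPM per kb in unstimulated and 0.091 CPM per kb in LPS-tolerant BMDMs. In unstimulated BMDMs it gave 72, 263 and 123 read pairs in replicates 1, 2 and 3 (7.39, 23.2 and 12.01 CPM). LPS-stimulated BMDMs had 17, 34 and 15 read pairs (2.18, 2.53 and 1.59 CPM). LPS-primed BMDMs had 20, 8 and 18 read pairs (2.27, 0.98 and 1.81 CPM). Every unstimulated library lay above every library of both LPS groups, and the LPS groups overlapped each other. Positions here and below are those of GRCm39. Slc40a1 fell by 3.06 on the log2 scale with LPS priming (SE 0.44, adjusted p 6.1e-05) and by 2.74 with the single dose (SE 0.43, adjusted p 5.3e-05), in 3 of 3 same-numbered pairs each (edgeR quasi-likelihood test, Benjamini-Hochberg over all tested genes, threshold 0.05). Unstimulated replicate 2 was the highest library, and without it the log2 fold changes (log2FC) were -2.49 and -2.17, both still past the threshold. Ighm, the B cell marker that moved with the same groups, was given above, and its part in the difference was not tested. In bulk RNA, fewer cells of a type and less RNA per cell cannot be told apart.

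LPS-tolerant BMDMs had the fewest Slc40a1 read pairs, 1, 4 and 4 (0.14, 0.37 and 0.44 CPM). With carboplatin the LPS-tolerant BMDMs had 42, 27 and 29 read pairs (5.92, 3.30 and 2.86 CPM). The 2 groups did not overlap, and since this contrast took part in the choice of the genes it is given as a description with no test. Its log2FC was 3.55 (SE 0.56), and the SD of the 3 same-numbered log2 differences was 1.42. Summed over the group, LPS-tolerant BMDMs held 9 read pairs (95% exact Poisson interval 4.12 to 17.1) and those with carboplatin held 98 (79.6 to 119), a ratio of 11.7 after scaling for depth. These intervals cover counting error only and not the spread between libraries. Since the values took part in the choice, the intervals and the ratio are no test of the difference.

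Carboplatin in LPS-primed BMDMs is a comparison that the choice did not use. Slc40a1 had 34, 58 and 40 read pairs there (4.93, 5.86 and 4.32 CPM), and each library lay above each LPS-primed library without carboplatin. Slc40a1 had a log2FC of 1.56 there (SE 0.44, unadjusted p 0.00264), in 3 of 3 pairs, but its adjusted p of 0.234 over all 11305 genes did not pass the threshold. Under DESeq2 the adjusted p was 0.0932 and with the replicate number as a block, a term that takes out differences shared by same-numbered samples, it was 0.0895, both above the threshold. Of all tested genes, 0% were called higher and 0.372% lower in this comparison. The group means put unstimulated BMDMs highest, then the 2 carboplatin groups, whose libraries overlapped, then LPS-stimulated and LPS-primed BMDMs, which also overlapped, and LPS-tolerant BMDMs lowest.

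**Figure D2:**
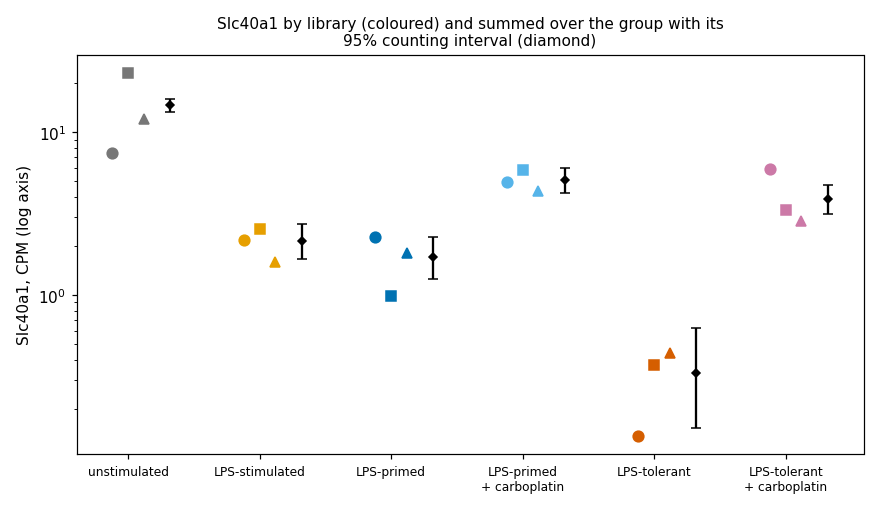
Slc40a1 in CPM on a log axis, with coloured circles, squares and triangles for replicates 1, 2 and 3 and black diamonds for the level summed over the 3 libraries with its 95% Poisson interval. The LPS-tolerant libraries lie between 0.14 and 0.44 CPM, and those with carboplatin between 2.86 and 5.92 CPM.

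Over 18 samples, the genes whose log2 level lay nearest to that of Slc40a1 were Mrnip, Mok, Inka2, Psrc1 and Sfxn4. Their root mean square differences from it, after centring each gene on its own mean, were 0.94, 0.96, 0.97, 0.97 and 1.00, where the median over all tested genes was 1.56. All were low, with the highest group mean at 18.9 CPM for Psrc1 in unstimulated BMDMs. The match was loose. With carboplatin in LPS-primed BMDMs the mean of Slc40a1 went from 1.69 to 5.04 CPM. There Mrnip went down from 1.19 to 0.77 CPM and Sfxn4 from 1.04 to 0.60 CPM, while Mok, Inka2 and Psrc1 went up. The ranking also used the LPS-tolerant values that took part in the choice of the genes.

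Of the importers, Slc11a1 (chr1:74414303-74425448, plus strand) encodes NRAMP1, which in its functional form pumps metal out of the phagosome. Only mRNA was measured, and whether NRAMP1 is functional in this mouse strain was not tested. The values below therefore do not show a change in metal transport. Slc11a1 had 217, 293 and 223 CPM in unstimulated, 241, 272 and 314 CPM in LPS-stimulated and 617, 583 and 489 CPM in LPS-primed BMDMs. The unstimulated and LPS-stimulated libraries overlapped, and every LPS-primed library lay above both. Slc11a1 rose by 1.20 (SE 0.17, adjusted p 6.1e-05) with priming, whereas the 3 h dose gave 0.17 (SE 0.17, adjusted p 0.421). LPS-tolerant BMDMs had 704, 497 and 613 CPM, a log2FC of 1.13 against LPS-stimulated BMDMs (SE 0.17, adjusted p 8.5e-05). Slc11a2 (chr15:100285776-100322953, minus strand) encodes DMT1, which carries ferrous iron across the plasma and endosomal membranes. It had 36.8, 40.9 and 24.5 CPM in unstimulated, 100.1, 142.8 and 132.0 CPM in LPS-stimulated and 89.8, 107.6 and 83.6 CPM in LPS-primed BMDMs. Both LPS groups lay wholly above the unstimulated libraries, with log2FC 1.88 (SE 0.20, adjusted p 6.8e-07) after 3 h and 1.46 (SE 0.19, adjusted p 2.6e-05) after 24 h. In LPS-tolerant BMDMs it had 81.1, 77.5 and 57.6 CPM, all below the LPS-stimulated libraries, and it fell by 0.80 between them (SE 0.19, adjusted p 0.0035).

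Tfrc (chr16:32427556-32451612, plus strand) encodes the receptor that takes up transferrin-bound iron. It had 16.0, 25.3 and 15.9 CPM in unstimulated, 22.3, 45.9 and 47.3 CPM in LPS-stimulated and 17.5, 52.8 and 39.2 CPM in LPS-primed BMDMs. The libraries of replicate 1 were low in both LPS groups and overlapped the unstimulated range. The log2FC values of 1.02 (SE 0.53, adjusted p 0.117) at 3 h and 0.93 (SE 0.53, adjusted p 0.224) at 24 h did not pass the threshold. With the compared groups only, the 3 h value was 1.08 (adjusted p 0.0208). With the replicate number as a block, both passed, at 0.95 (adjusted p 0.0021) and 0.81 (adjusted p 0.011). Without replicate 1 in any group, a setting chosen after the data were seen, they were 1.18 (adjusted p 0.0034) and 1.15 (adjusted p 0.0095).

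The ferritin genes were the highest of the 10 per kilobase in every group, and the ratio of heavy to light chain was higher in every library that received LPS than in any unstimulated one. Fth1 (chr19:9957911-9962462, plus strand), the heavy chain, took 1.95%, 1.53% and 1.57% of all counts in unstimulated, 2.17%, 1.77% and 1.97% in LPS-stimulated and 5.78%, 5.14% and 5.34% in LPS-primed BMDMs. The LPS-primed libraries lay far above the others. Fth1 rose by 1.93 (SE 0.16, adjusted p 1.4e-07) with priming and by 0.57 (SE 0.16, adjusted p 0.0062) with the single dose, and LPS-tolerant BMDMs were 1.31 above LPS-stimulated ones (SE 0.16, adjusted p 8.0e-06). With library size in place of TMM the 3 h change was 0.23 (adjusted p 0.183), where the median over all genes was -0.43, so the call at 3 h depends on the scaling. By count, Fth1 ranked between 1 and 3 among all genes in every library.

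Ftl1 (chr7:45107367-45109308, minus strand), the light chain, took 2.23%, 2.05% and 1.63% of counts in unstimulated, 1.29%, 0.98% and 0.95% in LPS-stimulated and 1.63%, 1.35% and 1.11% in LPS-primed BMDMs. By share of counts every unstimulated library lay above every LPS-stimulated and LPS-primed one, the closest being 1.631% in unstimulated replicate 3 and 1.625% in LPS-primed replicate 1. After TMM scaling unstimulated replicate 3, at 13627 CPM, lay below LPS-stimulated replicate 1 (13655 CPM) and LPS-primed replicate 1 (16536 CPM), so the groups overlapped. Ftl1 fell by 0.55 (SE 0.20, adjusted p 0.0319) with the single dose, and this call was lost in 4 of 6 fits that left out a library, namely unstimulated replicate 1 or 2 or LPS-stimulated replicate 2 or 3, with adjusted p from 0.0941 to 0.133. It was also lost, at -0.48 (adjusted p 0.0658), when the fit held the compared groups only. With priming Ftl1 had a log2FC of -0.30 (SE 0.20, adjusted p 0.321), but it passed the threshold with the replicate block (-0.30, adjusted p 0.0225) and with library size alone (-0.53, adjusted p 0.0392). LPS-tolerant against LPS-stimulated BMDMs gave 0.43 (SE 0.20, adjusted p 0.110), and 0.43 (adjusted p 0.0018) with the block.

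The ratio of Fth1 to Ftl1 counts within a library needs no scaling between libraries. It was 0.873, 0.742 and 0.962 in unstimulated BMDMs, 1.69, 1.81 and 2.07 in LPS-stimulated BMDMs and 3.56, 3.81 and 4.80 in LPS-primed BMDMs. These 3 groups did not overlap. The means were 0.859 ± 0.110, 1.86 ± 0.195 and 4.06 ± 0.660 (SD, n = 3), and in LPS-tolerant BMDMs the mean was 3.39 ± 0.229. A two-sided exact permutation test gave p 0.1 (0.167 adjusted over 5 comparisons) for LPS-stimulated and for LPS-primed against unstimulated BMDMs and for LPS-tolerant against LPS-stimulated BMDMs, which is the smallest p that 3 against 3 samples allow. LPS-tolerant against LPS-primed BMDMs gave an exact p of 0.2, with a lower ratio in 3 of 3 same-numbered pairs. Carboplatin in LPS-primed BMDMs gave an exact p of 0.7, at 3.77 ± 0.454. Both chains together took 3.65 ± 0.491% of counts in unstimulated and 6.78 ± 0.540% in LPS-primed BMDMs. Ferritin pseudogenes can share reads with their parents. A search of GENCODE by gene name found 6 for Fth1 and 2 for Ftl1, of which 1 each is a row of the count tables. Copies under other names were not searched for. Reads aligned to more than 1 place were 4.21% to 5.18% of each library and were not counted.

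**Figure D3:**
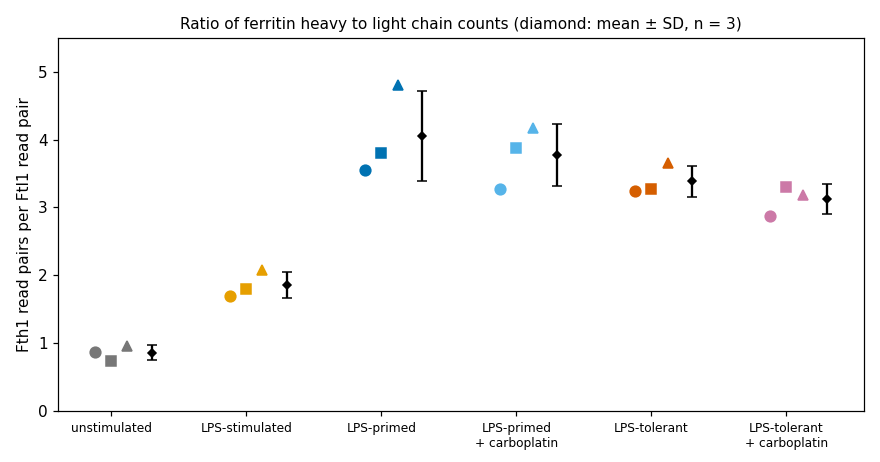
Read pairs on Fth1 per read pair on Ftl1, with coloured circles, squares and triangles for replicates 1, 2 and 3 and black diamonds for the mean ± SD (n = 3). The ratio lies below 1 in the 3 unstimulated libraries, between 1.69 and 2.07 in LPS-stimulated BMDMs and between 2.88 and 4.80 in the 4 groups that received the 24 h dose.

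Of the iron sensors, Ireb2 (chr9:54770970-54820011, plus strand) encodes iron regulatory protein 2, and Aco1 (chr4:40142998-40199010, plus strand) encodes iron regulatory protein 1, which works as an aconitase when it holds an iron-sulphur cluster. Ireb2 had 33.6, 58.8 and 66.6 CPM in unstimulated, 46.5, 118.6 and 85.4 CPM in LPS-stimulated and 47.0, 71.4 and 85.7 CPM in LPS-primed BMDMs, with replicate 1 lowest and the groups overlapping. Its log2FC was 0.66 (SE 0.34, adjusted p 0.114) at 3 h, and it passed the threshold with the replicate block (0.63, adjusted p 0.0015), without LPS-stimulated replicate 1 (0.95, adjusted p 0.0233) and without replicate 1 in any group (0.71, adjusted p 0.0076). At 24 h it was 0.36 (SE 0.34, adjusted p 0.495). Aco1 had 52.2, 53.7 and 59.9 CPM in unstimulated and 39.1, 46.3 and 47.7 CPM in LPS-stimulated BMDMs, groups that did not overlap. The log2FC of -0.32 (SE 0.13) had an adjusted p of 0.0552, while it passed the threshold with the replicate block (-0.32, adjusted p 0.014) and with library size alone (-0.66, adjusted p 0.00076). LPS-tolerant BMDMs had 66.4, 72.1 and 62.6 CPM of Aco1, all above the LPS-stimulated libraries, and Aco1 was higher there by 0.59 (SE 0.13, adjusted p 0.0021).

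Of the secreted proteins, Lcn2 (chr2:32274645-32278264, minus strand) encodes lipocalin 2. It gave 21, 16 and 4 read pairs in unstimulated, 283, 355 and 372 in LPS-stimulated and 4300, 2219 and 4051 in LPS-primed BMDMs. These 3 groups did not overlap. Lcn2 rose by 4.68 (SE 0.43, adjusted p 1.6e-07) with the single dose and by 8.20 (SE 0.47, adjusted p 1.7e-09) with priming, the largest log2FC of the 10 genes in both comparisons. In LPS-tolerant BMDMs it gave 3015, 2566 and 4710 read pairs, a log2FC of 3.52 against LPS-stimulated BMDMs (SE 0.35, adjusted p 1.1e-06). Lcn2 is also known as a neutrophil granule protein: of 6 neutrophil markers, Ly6g and Mpo had no read pair in any library, and the summed level was 0.781 to 1.34 CPM in unstimulated, 4.39 to 12.9 CPM in LPS-stimulated, 9.06 to 47.1 CPM in LPS-primed and 15.03 to 57.7 CPM in LPS-tolerant BMDMs. S100a8 was the highest of the 6, with up to 414 read pairs, while S100a9, Camp and Elane never exceeded 8, 14 and 2. Summed fibroblast markers were at most 0.391 CPM in unstimulated, 0.256 to 2.65 CPM in LPS-stimulated, 2.96 to 6.85 CPM in LPS-primed and 4.90 to 7.85 CPM in LPS-tolerant BMDMs, with up to 71 read pairs of Dcn. Col1a1, Col1a2 and Pdgfra, the other fibroblast markers, never exceeded 5, 6 and 2 read pairs. The part of all these markers in the rise of Lcn2, or of Cp and Hp, which also rose with LPS, was not tested.

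Cp (chr3:20011090-20063930, plus strand) encodes ceruloplasmin, a copper enzyme that oxidises the iron released by ferroportin. It gave 7, 34 and 10 read pairs in unstimulated, 48, 351 and 185 in LPS-stimulated and 71, 249 and 256 in LPS-primed BMDMs. In CPM, every LPS library lay above the unstimulated ones (0.72, 2.99 and 0.98 CPM), and replicate 1 was the lowest in each group. Cp rose by 3.44 (SE 0.75, adjusted p 0.0011) and 3.74 (SE 0.76, adjusted p 0.0014), in 3 of 3 pairs. Hps3 overlaps Cp on the other strand. The libraries were made with a stranded kit, but the strand setting of the counting is not given. Whether reads in the overlap were counted for Cp, for Hps3 or for neither is therefore not known. Slc40a1, Slc11a2, Fth1 and Ftl1 overlap predicted genes in the same way, and Ftl1 also overlaps Gm56125 on its own strand. The log2FC of Hps3 was -0.72 (adjusted p 0.0466) and -0.01 (adjusted p 0.981) in the same comparisons.

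**Figure D4:**
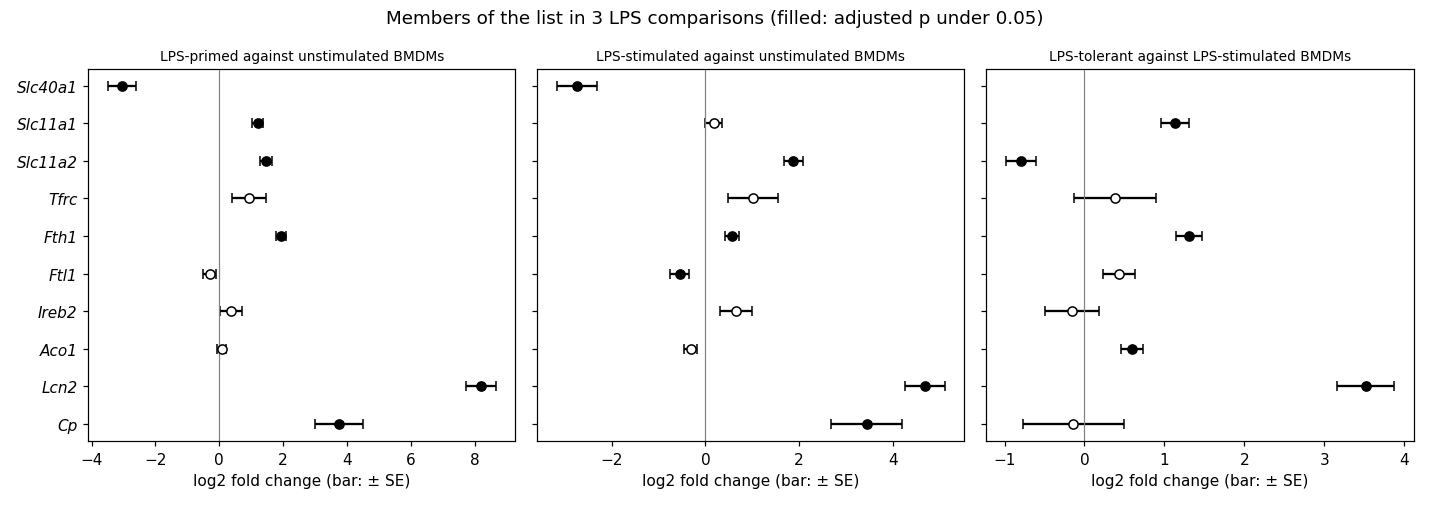
Log2FC (horizontal axis, bars ± SE) of the genes in 3 comparisons of LPS groups, each panel on its own scale, with filled points for an adjusted p under 0.05. Slc40a1 and Lcn2 lie farthest from 0 in opposite directions with priming, at -3.06 and 8.20, and Slc40a1 is not shown against LPS-tolerant BMDMs because it was not tested there.

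With LPS priming 5 of the 10 genes were higher (Slc11a1, Slc11a2, Fth1, Lcn2 and Cp) and 1 was lower (Slc40a1), where 12.1% of all tested genes were higher and 13.1% lower. Their median log2FC was 1.07, beside -0.02 over all genes. With library size alone 26.4% of the calls over all genes were higher, against 48.1% with TMM. With the replicate block 6 were higher and 2 lower, where 38.6% of all genes were called in either direction. With the single dose 4 were higher (Slc11a2, Fth1, Lcn2 and Cp) and 2 lower (Slc40a1 and Ftl1), against 24.3% and 26.9% of all genes, and the median was 0.61 beside -0.09. Here 28.5% of calls over all genes were higher with library size alone, against 47.5% with TMM, and the block called 6 higher and 3 lower, where 63.2% of all genes were called. The dose and the time both differ between these 2 LPS groups.

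LPS-tolerant against LPS-stimulated BMDMs asks what priming changed when the last dose was the same. Of 9 genes tested, 4 were higher (Slc11a1, Fth1, Aco1 and Lcn2) and 1 was lower (Slc11a2), where 16.2% of all genes were higher and 18.3% lower. The block added Ftl1 as higher, where 47.6% of all genes were called. Their median was 0.43, beside 0.0026 over all genes. This comparison shares the LPS-stimulated samples with the one before. The log2FC of Slc40a1 was -2.64 (SE 0.57), given without a test.

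Between LPS-tolerant and LPS-primed BMDMs none of 9 genes passed the threshold, with edgeR, with DESeq2 or with the block, and none had an unadjusted p under 0.05. The second dose came with fresh medium, and no primed group received fresh medium alone, so their effects cannot be told apart. Over all genes 3.60% were higher and 2.71% lower, and 57.1% of calls were higher, against 38.3% with library size alone. Leaving out 1 library at a time gave 330 to 506 calls in place of 713. The log2FC values lay between -0.44 (Cp, SE 0.63) and 0.47 (Tfrc, SE 0.52), with a median of 0.10 beside -0.014. Slc11a2 was at -0.38 (SE 0.19, adjusted p 0.266), Fth1 at -0.05 (SE 0.16, adjusted p 0.897) and Lcn2 at 0.00024 (SE 0.32, adjusted p 1).

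The second response was then set against the first, as the difference between LPS-tolerant minus LPS-primed and LPS-stimulated minus unstimulated BMDMs. The second response so defined includes the change to fresh medium. Without the replicate block 3 of 9 genes passed the threshold, each with a lower second response, where 13.3% of all genes were lower and 10.5% higher, and 44.2% of calls were higher, against 63.3% with library size alone. Lcn2 differed by -4.68 (SE 0.54, adjusted p 6.6e-06), Cp by -3.88 (SE 0.98, adjusted p 0.0080) and Slc11a2 by -2.25 (SE 0.27, adjusted p 1.1e-05), each in 3 of 3 pairs. All 3 were already above every unstimulated library before the second dose. In LPS-primed BMDMs Lcn2 had 272 to 489 CPM, Cp 8.07 to 30.5 CPM and Slc11a2 83.6 to 107.6 CPM. Fth1 at -0.62 (SE 0.22, adjusted p 0.0509), Aco1 at 0.52 (SE 0.19, adjusted p 0.0518) and Ftl1 at 0.73 (SE 0.28, adjusted p 0.0760) fell short of the threshold without the block and passed it with the block. The median of the 9 genes was -0.55, beside 0.062 over all genes.

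**Figure D5:**
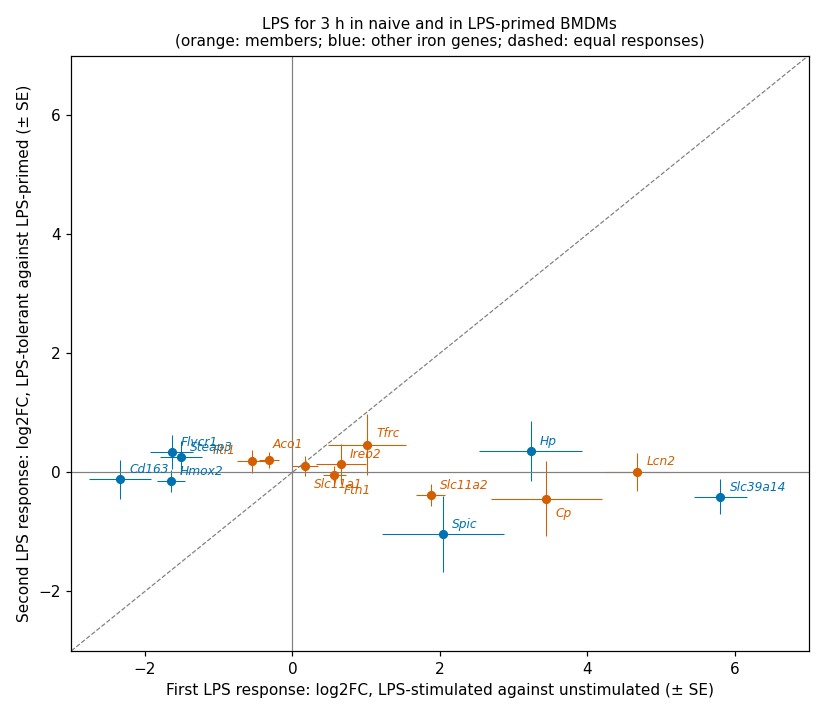
Log2FC of the second LPS response (LPS-tolerant against LPS-primed) against that of the first (LPS-stimulated against unstimulated), with bars ± SE, for the 9 tested genes in orange and 7 other iron genes in blue, and a dashed line where both are equal. The first responses of the genes in orange run from -0.55 to 4.68, and the second lie between -0.44 and 0.47.

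Carboplatin in LPS-primed BMDMs called none of the 10 genes, with edgeR, DESeq2 or the block, and Slc40a1 alone had an unadjusted p under 0.05. The other 9 lay between -0.35 (Cp, SE 0.63) and 0.30 (Lcn2, SE 0.32). Their overall median with Slc40a1 was 0.019, beside 0.010 over all genes. In LPS-tolerant BMDMs the values with carboplatin, given without a test, were between -0.49 (Cp, SE 0.65) and 0.33 (Slc11a2, SE 0.19) for these 9. Fth1 was at -0.17 in both states, with SE 0.16 each.

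The wider iron system was described with 60 further genes in 10 groups, of which 44 had enough counts. With priming 11 were higher and 5 lower, with the single dose 9 were higher and 16 lower, and in LPS-tolerant against LPS-stimulated BMDMs 9 were higher and 7 lower, beside the shares of all genes given above. Their medians were -0.066, -0.30 and 0.12. With the replicate block the counts were 13 and 11, 13 and 18, and 15 and 12, where 38.6%, 63.2% and 47.6% of all genes were called in either direction.

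Many genes of haem handling were called, as were many genes in all. With the single dose 7 of 11 tested genes of haem uptake, export and breakdown were lower and 1 was higher. Of all genes, 26.9% were lower and 24.3% higher there. In LPS-tolerant against LPS-stimulated BMDMs 7 were higher and none lower, where 16.2% of all genes were higher and 18.3% lower. With the replicate block the first count was unchanged, while in the second 9 were higher and 1 (Abcg2) lower. The block called 63.2% and 47.6% of all genes in either direction in these 2 comparisons. Hmox1, the inducible enzyme that frees iron from haem, had 348, 534 and 230 CPM in unstimulated, 273, 518 and 414 CPM in LPS-stimulated and 3664, 3434 and 2886 CPM in LPS-primed BMDMs. It rose by 3.17 (SE 0.26, adjusted p 1.3e-07) with priming, and the unstimulated and LPS-stimulated libraries overlapped. Hmox2, the constitutive form, fell by 1.65 (SE 0.19, adjusted p 1.8e-06) with the single dose, from 223 to 290 CPM down to 62.0 to 105 CPM. Cd163, the scavenger receptor for haemoglobin bound to haptoglobin, fell by 2.34 (SE 0.42, adjusted p 0.00019) with the single dose and had a log2FC of 3.64 (SE 0.41, adjusted p 3.7e-06) in LPS-tolerant against LPS-stimulated BMDMs. Hp, which encodes haptoglobin, had at most 1.64 CPM in unstimulated and 118 to 305 CPM in LPS-primed BMDMs (log2FC 7.44, SE 0.73, adjusted p 9.0e-07). Flvcr1, a haem exporter, fell by 1.64 (SE 0.29, adjusted p 0.00019) with the single dose, and Abcg2, another exporter of haem, fell by 1.00 (SE 0.23, adjusted p 0.0031) with priming.

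In haem synthesis, Alas1, the first and limiting enzyme, rose by 2.98 (SE 0.35, adjusted p 2.9e-06) with the single dose, while 5 of 8 tested genes of the pathway, all of them later steps, were lower, and 6 with the block. Of 8 genes of iron-sulphur cluster assembly, 0 were called with the single dose and 1 (Isca1) was higher with priming. Of all genes, 24.3% were higher and 26.9% lower with the single dose, and 12.1% were higher with priming. The block called 63.2% of all genes with the single dose and 38.6% with priming, in either direction. With the block Isca2 was higher and Nfs1 lower with the single dose, and Iscu was also higher with priming. Bach1, which encodes a repressor of Hmox1 and ferritin genes that haem inactivates, had a log2FC of -2.01 (SE 0.43, adjusted p 0.0014) in LPS-tolerant against LPS-stimulated BMDMs. Spic, a factor of iron-recycling macrophages, rose by 4.16 (SE 0.80, adjusted p 0.00085) with priming, from at most 1.06 CPM to between 4.43 and 17.01 CPM.

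Among the transporters, Slc39a14, which carries iron not bound to transferrin, had 4.01, 7.66 and 4.79 CPM in unstimulated and 152, 370.2 and 405 CPM in LPS-stimulated BMDMs (log2FC 5.81, SE 0.36, adjusted p 1.6e-09). In LPS-tolerant BMDMs it had 35.9, 26.8 and 37.5 CPM, a log2FC of -3.21 against LPS-stimulated BMDMs (SE 0.31, adjusted p 7.2e-07). Slc25a28, a mitochondrial iron carrier, was the single gene of the 44 called between LPS-tolerant and LPS-primed BMDMs, at -0.76 (SE 0.17, adjusted p 0.0154). With the block 1 was higher and 7 were lower there, where 9.67% of all genes were higher and 8.32% lower. Trf, which encodes transferrin, fell by 1.71 (SE 0.33, adjusted p 0.0010) with priming.

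Of the reductases, Steap4 had no read pair in unstimulated or LPS-tolerant BMDMs and 15 to 41 in LPS-stimulated BMDMs, which is at least 8.07-fold higher and, for LPS-tolerant BMDMs, at least 6.86-fold lower against a floor of 3 read pairs in each library. Steap3, the ferrireductase of endosomes, fell by 1.51 (SE 0.29, adjusted p 0.00032) with the single dose. Fbxl5, the iron-sensing subunit that marks iron regulatory protein 2 for degradation, rose by 3.27 (SE 0.32, adjusted p 9.5e-07) with priming, from 35.9 to 61.9 CPM up to 355 to 543 CPM. Bst1 overlaps Fbxl5 on the other strand, so this value has the same limit as Cp. Of the other iron genes named here, Abcg2, Alas1, Hmox2, Isca2, Ncoa4, Slc25a28, Steap4 and Trf also overlap genes on the other strand, and Flvcr1, Isca1 and Nfs1 overlap genes on both strands. Ncoa4, the receptor that sends ferritin to the lysosome, fell by 1.43 (SE 0.29, adjusted p 0.0013) with priming. Carboplatin in LPS-primed BMDMs called none of the 44 genes with edgeR or with the block, and 1 had an unadjusted p under 0.05.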

How the data were processed

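RNA-Seq reads of 18 samples were aligned to GRCm39 with HISAT2 and counted per gene with HTSeq by the authors, per the submitters' processing notes; program versions, annotation and strand option are not given in the sources used here. The deposited values are raw counts of read pairs per gene, without normalization. Read pairs on no gene (26.5% to 33.1% of each library) and those aligned to more than 1 place (4.21% to 5.18%) were left out of library sizes and tests.

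The members and the lists of other iron genes were chosen with earlier results of these data known. Tests were made in edgeR 4.0.16 (R 4.3.3) with the quasi-likelihood method. All 18 samples entered 1 model of group means, after TMM normalization and edgeR's own expression filter (minimum count 10, minimum total 15). P-values were adjusted by Benjamini and Hochberg over 11305 genes and called at 0.05, with no limit on log2FC. The prior count was 0.125, and each SE was taken from the log2FC and its F statistic (log2FC over root F, unsigned). Carboplatin in LPS-tolerant BMDMs, and Slc40a1 wherever LPS-tolerant BMDMs take part, got no test, because they took part in the choice of the genes. A gene with 3 counts or fewer in every library of a group was taken as at a floor of 3 counts per library. At this depth, levels that rest on fewer than 10 read pairs have a wide counting error.

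The members were named in every comparison; other named genes are the 4 other iron genes with the largest log2FC called in each direction of each comparison, and the 5 genes nearest to Slc40a1 in profile. Isca1, Isca2, Iscu, Nfs1, Hps3 and Bst1 and the markers were named outside this rule, after their values or positions were seen. The labels number the samples, and after removal of group means same-numbered samples correlated at 0.183 to 0.574 in every pair of groups compared, so the numbers were taken to pair the samples, and a model that adds the replicate number as a block stands beside a result or count of these comparisons where it changes the call. For the contrast of responses the lowest correlation was 0.0631, so the fit without the block is its main result. Members whose call the block changed there are named, and their block values stand among the alternatives. Directions in same-numbered sets of samples are only a description for this contrast.

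Alternatives were DESeq2 size factors or library size alone, no filter, DESeq2 1.42.0, the samples of the compared groups only, the replicate block, the study's limits (log2FC beyond 2 either way, adjusted p 0.05, or 0.25 for carboplatin) and leaving out samples. Positions and transcript lengths are those of GENCODE vM39 on GRCm39, which matched 20563 (90%) of 22852 symbols. The test scripts were tested on simulated data.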

Additional observations from a re-analysis of the deposited data

Results flagged for a closer look

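The second and the first LPS response differed, by the test of the difference itself, for 3 of the 9 members tested in the fit without the replicate block. The second response includes the change to fresh medium, whose part was not tested. On the log2 scale, the second minus the first response was -4.68 for Lcn2 (adjusted p 6.6e-06), -3.88 for Cp (adjusted p 0.0080) and -2.25 for Slc11a2 (adjusted p 1.1e-05), in edgeR's fit over all genes. All 3 genes were already higher in LPS-primed than in unstimulated BMDMs, before the second dose.

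Of the other iron genes with the largest differences, the second response was lower for Slc39a14 (-6.22, adjusted p 3.3e-08), Spic (-3.07, adjusted p 0.0418) and Hp (-2.87, adjusted p 0.0233). It was higher for Cd163 (2.22, adjusted p 0.0055), Flvcr1 (1.98, adjusted p 0.0018), Steap3 (1.76, adjusted p 0.0038) and Hmox2 (1.51, adjusted p 0.00039). In the first response these 4 genes had log2FC values of -2.34 (Cd163), -1.64 (Flvcr1), -1.51 (Steap3) and -1.65 (Hmox2), all past the threshold, and none of them was called in the second. Before the second dose, LPS-primed BMDMs were already above unstimulated ones for Slc39a14 (log2FC 3.01), Spic (4.16), Hp (7.44) and Cd163 (1.42). They were below them for Steap3 (-1.15), and all of these passed the threshold. Flvcr1 and Hmox2 were not called with priming. For each of the 7 genes, the second minus the first response had the sign given above in 3 of 3 same-numbered sets of samples. Steap4, called as well, had at most 1 read pair per library in 3 of the 4 groups of this contrast, so no difference is given for it.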

How the results depend on the processing

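No called log2FC of a member changed sign in any setting; 282 of 298 values of called members kept their call and 16 lost it. With the study's limits the members called were 3 with priming, 3 with the single dose and 1 in LPS-tolerant against LPS-stimulated BMDMs. In the contrast of second and first response 5 members were called with library size alone, 5 with DESeq2, 5 without replicate 1 in any group (chosen after the data were seen) and 6 with the replicate block (with Fth1 at -0.63, adjusted p 0.0013, Ftl1 at 0.73, adjusted p 0.00054, and Aco1 at 0.53, adjusted p 0.0094, so 4 lower and 2 higher), against 3. The block changed no other call of a member beyond those printed beside the results. Leaving out 1 library at a time gave 6 to 6 members called with priming, 5 to 7 with the single dose, 5 to 5 in LPS-tolerant against LPS-stimulated BMDMs, 0 to 0 in LPS-tolerant against LPS-primed BMDMs and with carboplatin, and 3 to 4 in the contrast of responses. Over all genes, leaving out 1 library gave 330 to 506 calls in LPS-tolerant against LPS-primed BMDMs (713 with all libraries; 330 without LPS-primed replicate 3) and 24 to 36 with carboplatin (42; 24 without LPS-primed carboplatin replicate 3). The block raised the counts from 2847 to 4367 with priming, from 713 to 2034 in LPS-tolerant against LPS-primed BMDMs, from 42 to 200 with carboplatin in LPS-primed BMDMs and from 2691 to 4091 in the contrast of responses; DESeq2 gave 1116 in LPS-tolerant against LPS-primed BMDMs and 123 with carboplatin, where the samples of the compared groups alone gave 454 and 19, and the study's limits gave 845, 77 and 905 with priming, in LPS-tolerant against LPS-primed BMDMs and in the contrast, 1352 (of 5789) with the single dose and 909 (of 3900) in LPS-tolerant against LPS-stimulated BMDMs.

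Library size alone moved the median of all genes from -0.02 to -0.26 with priming, from -0.09 to -0.43 with the single dose, from -0.014 to -0.11 in LPS-tolerant against LPS-primed BMDMs and from 0.06 to 0.30 in the contrast of responses. It turned the sign of uncalled values of Aco1 with priming (-0.16), Slc11a1 with the single dose (-0.16) and in the contrast (0.16), and Lcn2 in LPS-tolerant against LPS-primed BMDMs (-0.10), where no filter gave -0.00062 and the replicate block -0.019. Leaving out 1 library turned other uncalled values: in LPS-tolerant against LPS-stimulated BMDMs Ireb2 (-0.45 to 0.18) and Cp (-0.68 to 0.29); in LPS-tolerant against LPS-primed BMDMs Fth1 (-0.18 to 0.065), Ireb2 (-0.068 to 0.34), Lcn2 (-0.27 to 0.26) and Slc11a1 (-0.021 to 0.23); with carboplatin in LPS-primed BMDMs Tfrc (-0.21 to 0.49), Ftl1 (-0.21 to 0.080), Slc11a2 (-0.12 to 0.067), Slc11a1 (-0.058 to 0.15) and Cp (-0.74 to 0.044); and Slc11a1 in the contrast (-0.23 to 0.050). The causes were not tested. The log2FC of Slc40a1 with carboplatin in LPS-tolerant BMDMs was 3.18 to 3.81 when 1 library was left out, a description of values that took part in the choice of the genes. The depth limits Slc40a1 in LPS-tolerant BMDMs, where 9 read pairs carry its level, and Steap4, with 0 there.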
